A study of Mus musculus with 11 samples.

Results

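The genes described here code for the contractile apparatus of smooth muscle: Acta2, Tagln, Cnn1, Cnn2, Myl9, Tpm1, Tpm2, Actg2, Mylk and Cald1. They were chosen by name as 10 of the 22180 genes that the array annotation names through probe sets with 1 gene symbol. Each has 1 such probe set, all 10 passed the filter on low values, and 6 lay above the lowest deposited value on all 11 arrays.

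Smooth muscle contracts when myosin light chain kinase phosphorylates the regulatory light chain of myosin, which then pulls on filaments of smooth muscle actin lined with tropomyosin, calponin and caldesmon. Many of these genes are driven by serum response factor (SRF), which binds a short DNA element called the CArG box, with cofactors of the myocardin and MRTF family that respond to the state of actin. Fibroblasts in culture on stiff plastic with serum are known to make several of the same proteins, as myofibroblasts do, so the set is a familiar readout of the fibroblast state that is left behind when cells are reprogrammed to pluripotency.

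RNA was hybridised to 11 whole-transcript arrays, 1 per group. Mouse embryonic fibroblasts heterozygous for the doxycycline-dependent activator rtTA at the Rosa locus received viruses carrying Klf4, Oct4, Myc and Sox2 under a tetracycline operator, and doxycycline was added on the day after infection (day 0). At day 9 and day 6, cells were sorted by flow cytometry, with a second round of sorting, into CD49d+ and CD73+ populations, which the submitters call poised to reprogram, and a CD73- population, called non-poised. Unsorted cells of both days were also measured. The remaining 3 arrays held SC4, a partially reprogrammed cell line, V6.5 embryonic stem cells (ESC), and uninfected fibroblasts of the same Rosa-rtTA +/- genotype (MEF). The sources used here do not say whether the ESC were grown on fibroblast feeder cells. Values are deposited intensities on a linear scale, which cannot go below 100, and a gene at 100 has only an upper bound there. No group has a replicate, and nothing in the labels says that day 6 and day 9 came from separate cultures.

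The labels name no smooth muscle cell, and 2 genes that define that cell type were close to the lowest value on the reprogramming arrays. Myh11, the smooth muscle myosin heavy chain, lay between 100 and 143 on the 8 reprogramming arrays, at 128.5 in SC4, 164 in ESC and 245 in MEF. Myocd, the cofactor of SRF in smooth muscle, lay between 100 and 117 on all 11 arrays. Myh11, Lmod1 (384) and Smtn (775), which smooth muscle also makes, had their highest value in MEF. Whether smooth muscle cells were among the fibroblasts was not tested. In bulk samples, fewer cells that make a transcript cannot be told apart from less of it per cell.

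The promoter sequences of 8 of the 10 genes were in the RefSeq table of assembly GRCm38.p6, with 9 promoters among them, each running from 250 bases before the transcription start to 50 bases after it. A CArG box is a run of A and T bases, 6 long, between CC and GG, and it reads as a CArG box on either strand. It was present in the promoters of 2 of the 8 genes, Myl9 and Cnn2, against 1.63% of all 32851 promoters in the table. With 1 other base allowed in the A and T core it was present in 3 of the 8, now with Acta2, against 9.98% of all promoters. The stretches of 200 bases just before the start are shown because Acta2 and Cnn2, among the 3 genes with a match, had the most negative differences of the 10 between CD73+ and CD73- cells. Myl9, the third, differed by only -0.26 on the log2 scale (limma adjusted p = 0.477). Tpm1, which passed the threshold in that comparison, had no match in its window. Whether matches and differences go together was not tested. Capitals mark every match with at most 1 other base in the core.
Acta2, chr19:34255374-34255573, minus strand: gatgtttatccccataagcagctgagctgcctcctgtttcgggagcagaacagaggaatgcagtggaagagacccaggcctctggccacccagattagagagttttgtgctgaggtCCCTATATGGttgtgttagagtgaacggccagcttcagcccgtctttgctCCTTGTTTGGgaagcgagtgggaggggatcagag
Myl9, chr2:156775264-156775463, plus strand: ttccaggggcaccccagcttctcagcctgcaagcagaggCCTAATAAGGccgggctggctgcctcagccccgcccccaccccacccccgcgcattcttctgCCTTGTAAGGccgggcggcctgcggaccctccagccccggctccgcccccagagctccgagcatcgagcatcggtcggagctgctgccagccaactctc
Cnn2, chr10:79988400-79988599, plus strand: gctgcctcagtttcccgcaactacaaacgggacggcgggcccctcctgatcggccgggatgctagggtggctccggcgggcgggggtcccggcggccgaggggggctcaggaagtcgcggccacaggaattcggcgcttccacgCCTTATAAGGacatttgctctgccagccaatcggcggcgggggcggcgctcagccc
The matches in Acta2 begin 84 and 34 bases before the start, those in Myl9 161 and 99 bases before it and the match in Cnn2 56 bases before it. Both matches in Acta2 and the nearer one in Myl9 are of the relaxed form. A match is a run of letters and does not show that SRF binds there in these cells, and a promoter without one has none in this window only.

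All 10 contractile genes had their highest intensity in MEF, which was true of 25.3% of the 14301 genes above the lowest value on some array. The lowest intensity of all 10 lay on a CD73+ array or in SC4, against 40.8% of genes, with ties at the lowest value counted. Acta2, the smooth muscle alpha-actin that marks myofibroblasts, covered the widest range of the 10, at 10221 in MEF and 100 in SC4. Over the 11 arrays Cald1 ranged 5.29-fold and Tpm1 3.63-fold, and Mylk was at 100 on 8 of the 11 arrays.

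The actins are described first. Acta2 had an intensity of 3104 at day 9 and 5172 at day 6 in CD49d+ cells, 449.5 and 463 in CD73+ cells, 2784 and 2263 in CD73- cells, and 7354 and 4597 in unsorted cells, against 100 in SC4, 6236 in ESC and 10221 in MEF. Both CD73+ arrays stood well below the other 6 reprogramming arrays, whose values did not overlap with theirs. Actg2, the gamma-actin of enteric smooth muscle, had 721 and 741 in CD49d+ cells at day 9 and day 6, 627 and 528 in CD73+ cells, 897 and 552 in CD73- cells, and 1463 and 783 in unsorted cells, against 232 in SC4, 481 in ESC and 1769 in MEF. Here the sorted populations lay close together and the day 9 unsorted array stood apart from them. The proteins of Acta2 and Actg2 are nearly identical to each other and to the striated actins Acta1 and Actc1, and part of a probe set's signal may come from a paralog, which was not tested.

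Transgelin (Tagln, also called SM22-alpha) and the calponins bind actin filaments. Tagln had intensities of 427 and 814 in CD49d+ cells at day 9 and day 6, 173 and 159 in CD73+ cells, 295 and 366 in CD73- cells, and 1320.5 and 621 in unsorted cells, against 181 in SC4, 1442 in ESC and 4039 in MEF. CD73+ cells lay just below SC4, and CD49d+ cells lay between the CD73- and unsorted arrays except that the day 6 array exceeded the unsorted one of that day. Cnn1, the calponin of smooth muscle, had 147 and 248 in CD49d+ cells, 106 and 100 in CD73+ cells, 100 and 122 in CD73- cells, and 366 and 272 in unsorted cells, against 113 in SC4, 899 in ESC and 1699 in MEF. Cnn1 was thus at or near the lowest value in both CD73+ and CD73- cells. Cnn2, a calponin that many non-muscle cells make, had 745 and 1364 in CD49d+ cells, 342 and 349 in CD73+ cells, 911 and 787 in CD73- cells, and 1673 and 1171 in unsorted cells, against 440.02 in SC4, 2267 in ESC and 4774 in MEF. For Cnn2 the CD73+ arrays were the lowest of all 11.

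The tropomyosins lie along the actin filament, and caldesmon (Cald1) binds it as a brake on myosin. Tpm1 had 1026 and 1173 in CD49d+ cells at day 9 and day 6, 660.2 and 642 in CD73+ cells, 1113 on both days in CD73- cells, and 1575 and 1283 in unsorted cells, against 667 in SC4, 1531 in ESC and 2331 in MEF. The CD73+ arrays were again lowest, with the other populations close together. Tpm2 had 132 and 181 in CD49d+ cells, 100 on both days in CD73+ cells, 171 and 152 in CD73- cells, and 273 and 189 in unsorted cells, against 100 in SC4, 284 in ESC and 690.1 in MEF. Cald1 had 666 and 793 in CD49d+ cells, 671 and 518 in CD73+ cells, 805 and 694 in CD73- cells, and 854 and 695 in unsorted cells, against 630.3 in SC4, 600.3 in ESC and 2738 in MEF. Outside MEF, Cald1 varied little, and its CD73+ and CD49d+ arrays overlapped.

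The light chain and its kinase complete the set. Myl9, the regulatory light chain of smooth muscle myosin, had 467 and 614 in CD49d+ cells at day 9 and day 6, 303 and 327 in CD73+ cells, 376 and 375 in CD73- cells, and 857 and 619 in unsorted cells, against 287 in SC4, 1283 in ESC and 3886 in MEF. Its CD73- values lay just above its CD73+ values. Mylk was at 100 on both CD49d+ arrays, at 147 and 100 in CD73+ cells, at 100 on both CD73- arrays, and at 115 and 100 in unsorted cells, against 100 in SC4 and ESC and 193 in MEF. Little can be read from Mylk at this level.

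**Figure D1:**
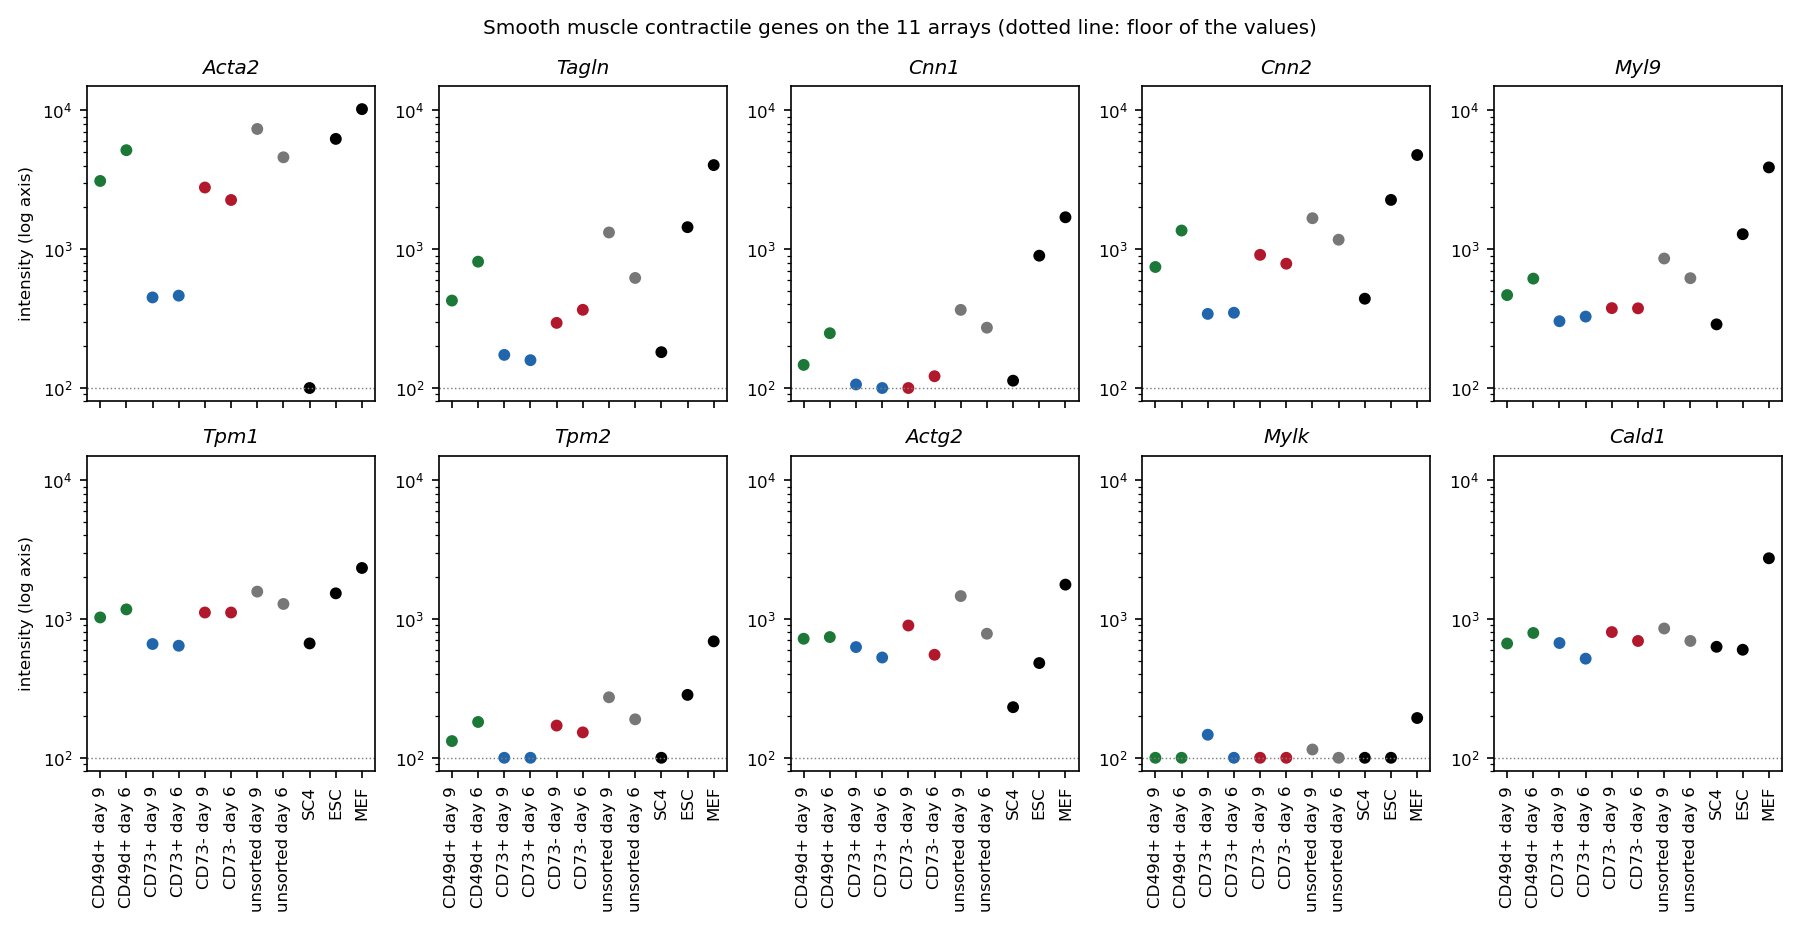
Intensity of each of the 10 contractile genes (log axis) on the 11 arrays, 1 point per array, with the lowest deposited value of 100 as the lower limit. MEF is highest for each gene, and the CD73+ arrays of Acta2 sit at 449.5 and 463 while the other 6 reprogramming arrays lie between 2263 and 7354.

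CD73+ cells were compared with CD73- cells to ask how the poised cells sorted by this marker differ from the non-poised ones. Acta2 was 5.50-fold lower in CD73+ cells and Tpm1 1.71-fold lower, and these 2 of the 10 genes passed the test. The log2 difference was -2.46 ± 0.33 for Acta2 (SE, limma across all genes, Benjamini-Hochberg adjusted p = 0.0234) and -0.77 ± 0.12 for Tpm1 (limma, adjusted p = 0.0315). No contractile gene was higher past the threshold. Over all 13313 genes tested, 8.00% passed in either direction, 5.06% as higher and 2.94% as lower. The differences of Cnn2 (-1.29 ± 0.33, limma adjusted p = 0.0785), Tagln (-0.99 ± 0.46, adjusted p = 0.245) and Tpm2 (-0.69 ± 0.23, adjusted p = 0.133) did not pass, and the last is at least 1.61-fold lower because the CD73+ arrays were at 100. Acta2 differed by -2.63 at day 9 and -2.29 at day 6 and Cnn2 by -1.41 and -1.17, so the gap was of similar size on both days. The remaining 5 genes ran from -0.34 for Cald1 to 0.28 for Mylk.

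In this comparison 7 of the 10 genes had both CD73+ arrays below both CD73- arrays, against 31.9% of all genes tested, and the median log2 difference of the 10 was -0.52, against -0.02 for all genes. Both calls depend on every array of 3 populations being in the fit: leaving out any 1 of the CD73+, CD73- or unsorted arrays left 0 of the 10 past the threshold, with adjusted p up to 0.201 for Acta2 and 0.228 for Tpm1, and leaving out 1 CD49d+ array gave 3. The log2 differences themselves stayed between -2.63 and -2.29 for Acta2 and between -0.80 and -0.75 for Tpm1. In the fits that left 0 of the 10, between 0 and 2 of all genes tested passed. The error in this fit is only the disagreement of a difference between day 9 and day 6.

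CD49d+ cells, the other poised population, were compared with the same CD73- arrays. None of the 10 genes passed in limma and 1, Cnn1, had an unadjusted p under 0.05, while 13.3% of all genes passed, 7.69% as higher and 5.66% as lower. Acta2 was higher by 0.67 ± 0.33 on the log2 scale (limma adjusted p = 0.245), Tagln by 0.84 ± 0.46 (adjusted p = 0.296), Cnn1 by 0.79 ± 0.28 (adjusted p = 0.131) and Myl9 by 0.51 ± 0.20 (adjusted p = 0.165). The gap was smaller at day 9 than at day 6 for each of these 4, at 0.16 and 1.19 for Acta2, 0.53 and 1.15 for Tagln, 0.55 and 1.03 for Cnn1 and 0.31 and 0.71 for Myl9, and the change of the gap was not tested. For 4 of the 10 both CD49d+ arrays lay above both CD73- arrays, against 28.3% of all genes, and the median of the 10 was 0.15, against 0 for all genes. The CD73+ and CD49d+ comparisons share the CD73- arrays, so their values are set side by side and not correlated.

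**Figure D2:**
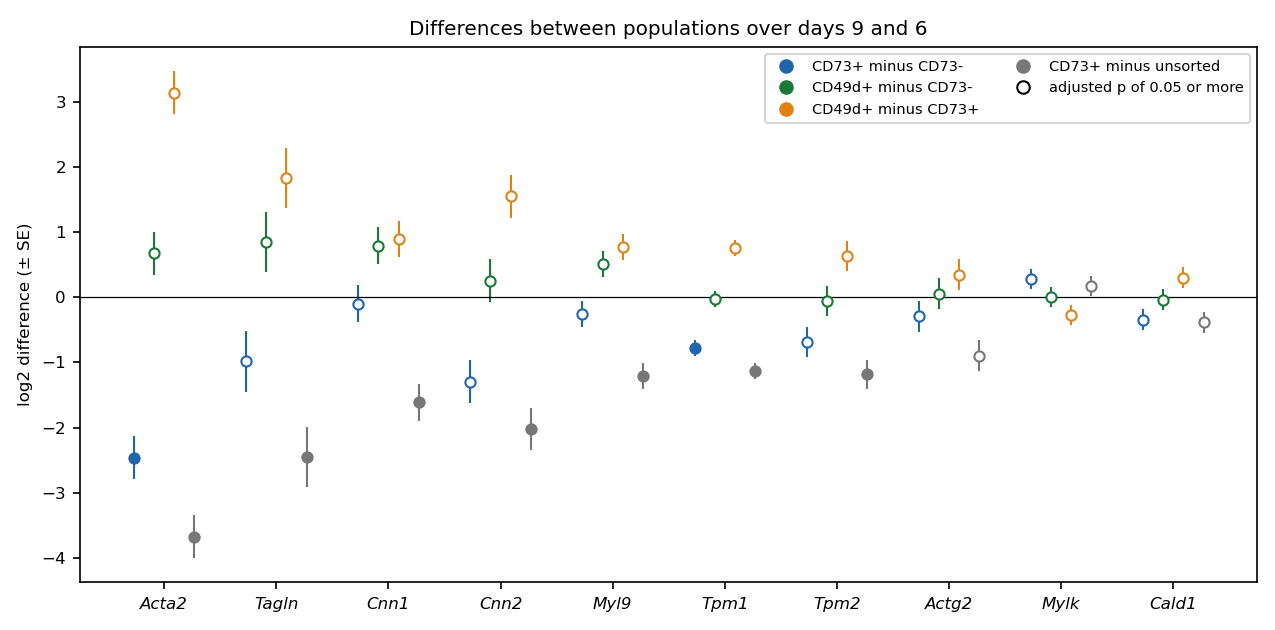
Log2 difference between populations for each contractile gene (filled points passed at adjusted p under 0.05, open points did not, bars are SE from limma). In CD73+ minus CD73- cells Acta2 lies at -2.46 and Tpm1 at -0.77, the 2 filled points of that comparison.

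Set directly against CD73+ cells, CD49d+ cells had 8.78-fold higher Acta2, 3.55-fold higher Tagln and 2.92-fold higher Cnn2, but none of the 10 genes passed in limma. The log2 differences were 3.13 ± 0.33 for Acta2 (adjusted p = 0.0587), 1.83 ± 0.46 for Tagln (adjusted p = 0.104), 1.55 ± 0.33 for Cnn2 (adjusted p = 0.0803) and 0.75 ± 0.12 for Tpm1 (adjusted p = 0.0621). Only 0.0300% of all genes passed in this comparison, 4 genes in all, 0.00751% as higher and 0.0225% as lower. Of the 10, 7 had an unadjusted p under 0.05, and 8 had both CD49d+ arrays above both CD73+ arrays, against 28.9% of all genes. The median of the 10 was 0.76, against 0.01 for all genes. Centring each array on its own median gave 3 of the 10 past the threshold and quantile scaling 3, with adjusted p of Acta2 between 0.0144 and 0.353 over the alternatives tried.

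At day 9 unsorted cells lay above all 3 sorted populations for 9 of the 10 genes, against 26.3% of all genes tested, and at day 6 for 5 of the 10, against 25.4%. For 5 of the 10 this held on both days, against 12.3%. CD73+ cells lay below the other 3 arrays of the same day on both days for 7 of the 10, against 16.7% of all genes. Comparisons with unsorted cells were added after values of these data had been seen, and they share the unsorted arrays. CD73+ cells were lower than unsorted cells for 7 of the 10 past the threshold, against 10.8% of all genes lower, 11.4% higher and 22.2% in either direction. The 7 were Acta2 at 12.7-fold lower (log2 difference -3.67 ± 0.33, limma adjusted p = 0.00919), Tagln at 5.46-fold, Cnn2 at 4.05-fold, Cnn1 at 3.06-fold, Myl9 at 2.31-fold, Tpm2 at at least 2.27-fold and Tpm1 at 2.18-fold, with limma adjusted p between 0.00919 and 0.0264. The value of Cnn1 may understate its difference, since 1 of its CD73+ arrays was at 100. Leaving out any 1 CD73+ or unsorted array left 0 of the 7 past the threshold, leaving out the CD73- array of day 9 left 3 and that of day 6 left 4, and leaving out 1 CD49d+ array gave 9. Actg2 (-0.90, adjusted p = 0.0538) and Cald1 (-0.39, adjusted p = 0.149) did not pass. For 9 of the 10 both CD73+ arrays lay below both unsorted arrays, against 32.4% of all genes.

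By the median of the 10, the other sorted populations were nearer to unsorted cells than CD73+ cells were, whose median was -1.20. The genes varied in this. Cnn1 differed by -1.52 in CD73- minus unsorted cells and by -1.61 in CD73+ minus unsorted cells. In the same order, Myl9 differed by -0.95 and -1.21, and Acta2 by -1.21 and -3.67. In CD49d+ minus unsorted cells all 10 differences were negative with a median of -0.51, none of the 10 passed in limma, 2 had an unadjusted p under 0.05, and 4.39% of all genes passed, 2.63% as higher and 1.77% as lower. For 5 of the 10 the arrays did not overlap, against 22.1% of all genes in that direction. In CD73- minus unsorted cells all 10 were negative with a median of -0.66, none passed, 5 had an unadjusted p under 0.05, and 1.02% of all genes passed, 0.210% as higher and 0.811% as lower. For 7 of the 10 the arrays did not overlap, against 23.9%. Unsorted cells are the mixture that the sort took apart, and other cells it holds were not measured by themselves. Sorted cells also went through flow cytometry with a second round of sorting, which unsorted cells did not. The handling and the make-up of the mixture cannot be told apart here.

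The time comparison asked whether the set changed between day 6 and day 9. No gene of the 13313 tested passed in limma (0%), although 1545 had an unadjusted p under 0.05, among them 1 of the 10, Actg2 (log2 difference day 9 minus day 6 of 0.45 ± 0.17, adjusted p = 0.411). The direction was not the same in the 4 populations, and that difference was not tested. In CD49d+ cells 9 of the 10 were lower at day 9 and none higher, with a median of -0.43, while 44.1% of all genes were lower. In unsorted cells all 10 were higher at day 9, with a median of 0.49, while 40.4% of all genes were higher. In CD73+ cells 6 were higher and 3 lower, with a median of 0.06, while 36.7% of all genes were higher and 54.3% lower. In CD73- cells 6 were higher and 2 lower, with a median of 0.08, while 53% of all genes were higher and 39.2% lower. Tagln in unsorted cells, at 1320.5 on day 9 against 621 on day 6, was the 1 case of at least 2-fold in any population.

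**Figure D3:**
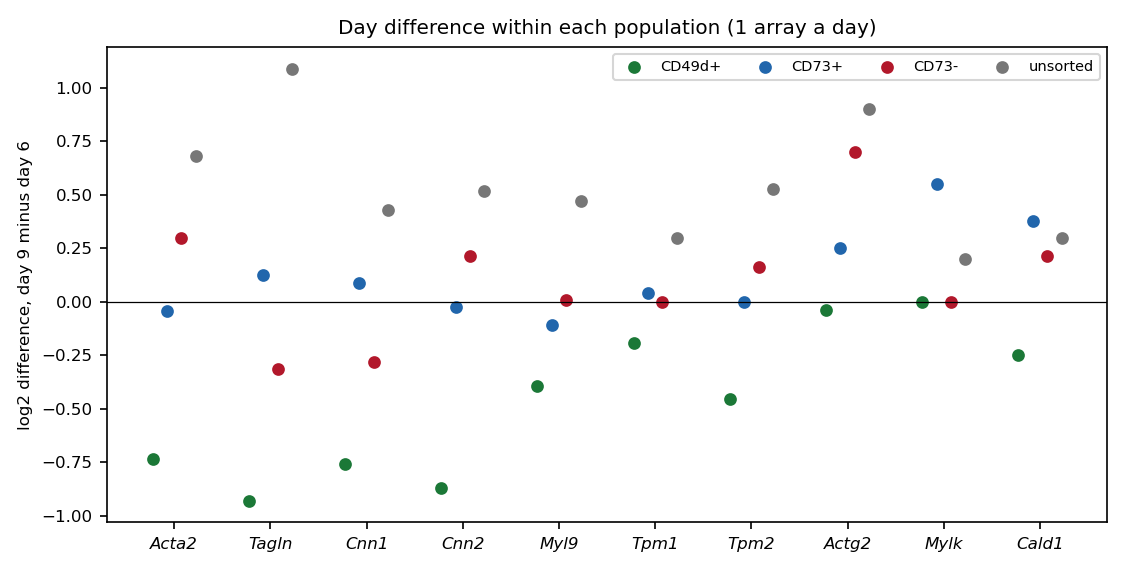
Log2 difference day 9 minus day 6 of each contractile gene within each population, 1 array on each side and so without error bars. CD49d+ points lie at or below 0 and unsorted points above 0, and Tagln in unsorted cells is the largest at 1.09.

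All 10 genes were lower on each of the other 10 arrays than in MEF. Since MEF is a single array these differences carry no test. At least 2-fold lower than MEF were 9 of the 10 in CD49d+ cells at day 9 and 7 at day 6, 9 and 9 in CD73+ cells, 8 and 9 in CD73- cells, 6 and 8 in unsorted cells, 9 in SC4 and 6 in ESC. Of the 9250 genes with 200 or more in MEF, which alone could show such a drop, 14.5% and 12.2% did so in CD49d+ cells at day 9 and day 6, 15.3% and 15.2% in CD73+ cells, 14.5% and 16.3% in CD73- cells, 12.4% and 13.4% in unsorted cells, 17.8% in SC4 and 18.5% in ESC, and 9 of the 10 contractile genes lie among them, Mylk being the exception. The median log2 difference of the 10 from MEF was -2.21 and -1.80 in CD49d+ cells at day 9 and day 6, -3.23 and -3.18 in CD73+ cells, -1.95 and -2.18 in CD73- cells, -1.43 and -1.92 in unsorted cells, -3.19 in SC4 and -1.18 in ESC, with 0 for all genes on each array. Tagln was 25.4-fold lower in CD73+ cells at day 6, Acta2 at least 102-fold lower in SC4, and Cnn1 at least 17.0-fold lower in CD73- cells at day 9. In ESC the 9 contractile genes above the lowest value were at most 4.56-fold lower, the value of Cald1, and Mylk was at least 1.93-fold lower.

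**Figure D4:**
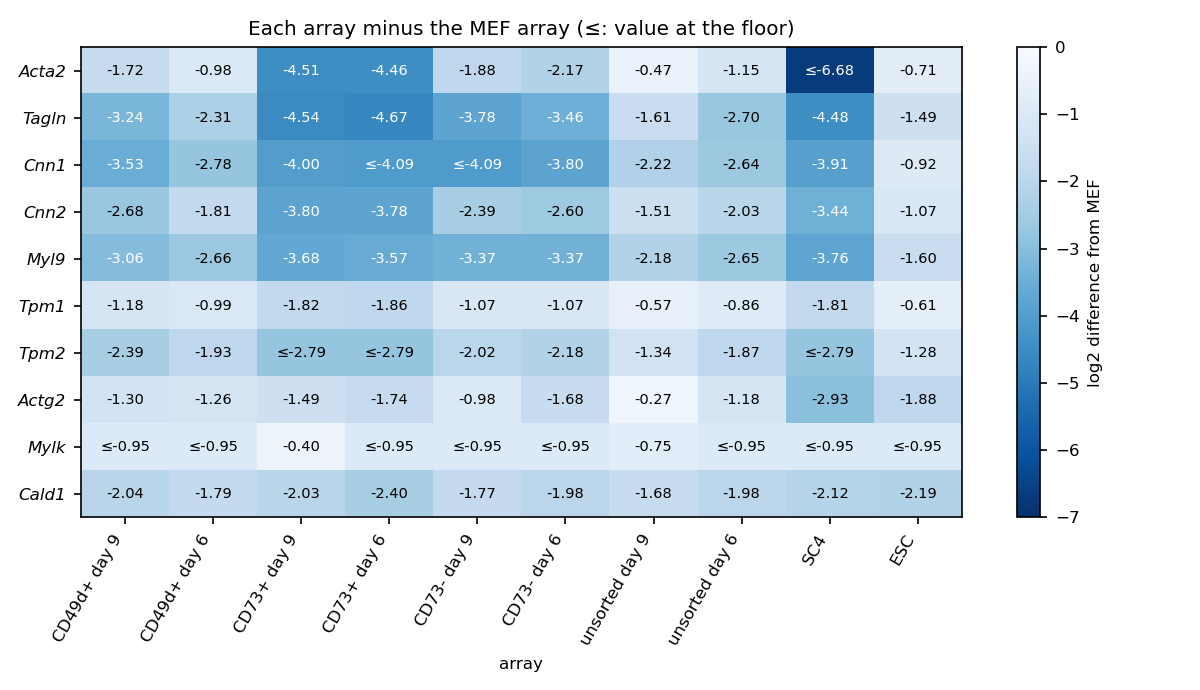
Log2 difference of each contractile gene from MEF on the other 10 arrays. CD73+ cells and SC4 hold the lowest medians, -3.23, -3.18 and -3.19, and ESC the highest, -1.18.

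The 9 genes other than Mylk varied together. Over the 11 arrays their 36 pairs had correlations of log2 intensity between 0.50 (Acta2 with Cald1) and 0.98 (Tagln with Cnn2), with a median of 0.84, and over the 8 reprogramming arrays between 0.56 and 0.98, with a median of 0.83. These are descriptions over 11 and 8 arrays that share MEF as the highest point or the same cultures. The genes outside the set with the profile most like the mean of the members, out of 5989 candidates, were Rcn3 (r = 0.98 over 11 arrays), Shisa4 (0.98), Kdelr3 (0.97), Copz2 (0.97), Ptges (0.96), Ccn1 (0.96), Ptprn (0.96) and Gata2 (0.96). Rcn3 and Kdelr3 are proteins of the early secretory pathway, and Ccn1 is a matricellular protein that SRF and YAP are known to drive. Rcn3 had 180 and 270.8 in CD73+ cells at day 9 and day 6 and 4912 in MEF. The genes most like Acta2 alone were Crabp1 (0.98), Thbs1 (0.97), Tnc (0.95) and Klhl22 (0.94). Crabp1 binds retinoic acid, and Thbs1 and Tnc are matrix glycoproteins. Tnc stood at 832 and 1912 in CD49d+ cells, against 125 and 143.5 in the CD73+ population.

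Of 25 further actomyosin and thin filament genes, 24 were tested, and in CD73+ minus CD73- cells 2 fell and none rose, against 8.00% of all genes. They were Myh10, non-muscle myosin IIB (log2 difference -0.66, limma adjusted p = 0.0175), and Actg1, cytoplasmic gamma-actin (-0.44, adjusted p = 0.0340). The median of the 24 was -0.06, against -0.02 for all genes. In CD49d+ minus CD73- cells 1 of the 24 fell and 1 rose, against 13.3% of all genes in either direction. Myh10 fell (-0.72, limma adjusted p = 0.0116) and Myl12b, a non-muscle light chain, rose (0.47, adjusted p = 0.0235). Cnn3 and Actn4, the 2 of highest mean intensity in this group, lay between 4997 and 7127 and between 3424 and 4480 over the 11 arrays.

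Srf itself fell in CD73+ minus CD73- cells (log2 difference -0.48, limma adjusted p = 0.0423). Its intensity was 510 and 608 in CD73+ cells at day 9 and day 6, against 785 and 768 in CD73- cells. Of 7 other targets of SRF with MRTF or of YAP, only Fhl1 passed in either poised population relative to CD73- cells. It fell by a log2 difference of -0.63 for CD73+ (limma adjusted p = 0.0192) and -0.68 for CD49d+ (adjusted p = 0.0130). Of all genes 8.00% and 13.3% passed in these comparisons. Unlike the contractile genes, Fhl1 was not highest in MEF (693), with 636 and 905 in CD73- cells at day 9 and day 6. Against unsorted cells 6 of the 7 were lower in CD73+ cells past the threshold, beside 10.8% of all genes. That count was 0 without any 1 CD73+ or unsorted array, 2 without either CD73- array and 7 without either CD49d+ array. Thbs1, of highest mean intensity in this group, had 1395 and 3463 in CD49d+ cells, 529 and 787 in CD73+ cells, 3048 and 2126 in CD73- cells, and 5313 and 4136 in unsorted cells.

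The 10 fibroblast markers had a median log2 difference of -1.11 in CD73+ minus CD73- cells, and their part in the contractile differences was not tested. Of 10 such genes tested, Postn, a matrix protein (-3.17, limma adjusted p = 0.0187), and Col3a1, a fibrillar collagen (-1.43, adjusted p = 0.0210), fell in CD73+ minus CD73- cells, against 2.94% of all genes. Neither call held in every fit with 1 array left out. In CD49d+ minus CD73- cells Col3a1 alone of the 10 fell (-0.83, limma adjusted p = 0.0477), against 5.66% of all genes. Postn did not pass there (-0.74, adjusted p = 0.277). In CD73+ minus CD73- cells not all of the list ran lower. Dcn, a proteoglycan, differed the other way by 0.47 (adjusted p = 0.182), with 1414 and 2320 in CD73+ cells at day 9 and day 6 against 1231 and 1398 in CD73- cells. Against unsorted cells 6 of the 10 were lower in CD73+ cells past the threshold, beside 10.8% of all genes. That count was 0 without any 1 CD73+ or unsorted array, 1 or 2 without 1 CD73- array and 8 without either CD49d+ array. Summed over the list, intensity was 10.5% and 17.96% of MEF in CD49d+ cells at day 9 and day 6, 6.67% and 8.67% in CD73+ cells, 17.7% and 13.5% in CD73- cells, and 27.7% and 19.2% in unsorted cells, against 3.37% in SC4 and 7.26% in ESC. The contractile genes summed to 23.3% and 34.6% of MEF in CD49d+ cells, 11.1% and 10.2% in CD73+ cells, 23.4% and 20.2% in CD73- cells, and 49.0% and 31.9% in unsorted cells, against 8.81% in SC4 and 46.8% in ESC. In ESC the contractile sum was near that of unsorted cells at day 9 while the fibroblast sum was 7.26%. Acta2 alone gave a large part of the contractile sums. It was 6236 of 15123 in ESC, 7354 of 15850 in unsorted cells at day 9 and 10221 of 32341 in MEF. Of the fibroblast markers in ESC, Lum was at 100, as on both CD73+ arrays, and Dcn at 178, below both. Each of the others measured was above both CD73+ arrays. Col1a1 was at 933, Col1a2 at 528, Pdgfrb at 413 and Col5a1 at 375. Postn was at 356, Thy1 at 224, Col3a1 at 213 and Pdgfra at 136. The median intensity of the list was 290 in ESC, against 203 and 218 in CD73+ cells at day 9 and day 6. ESC also had 1228 for Actc1 and 1427 for Des, 2 genes of the striated muscle list, though Des is not limited to striated muscle. That list summed to 207% of MEF there. These 2 were its only genes at least 2-fold above MEF in ESC, and its median was 134 in ESC and 123 in MEF. Sums count a gene at the lowest value as 100.

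**Figure D5:**
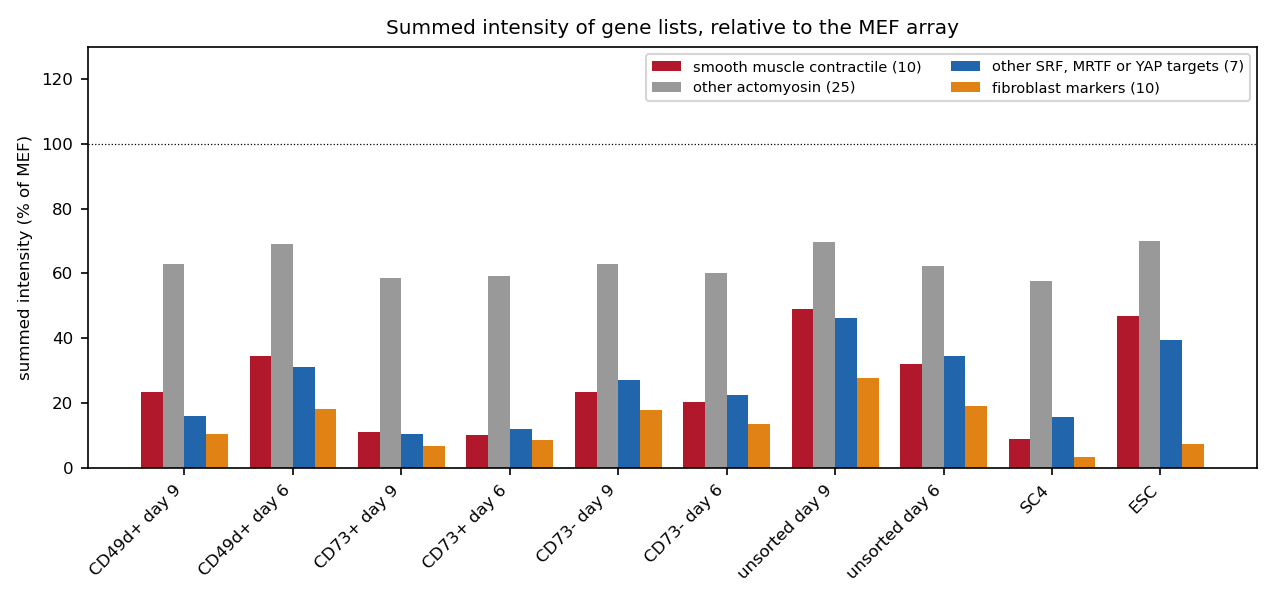
Summed intensity of 4 gene lists on each array as percent of the MEF sum: the 10 contractile genes, 25 other actomyosin genes, 7 other SRF, MRTF or YAP targets and 10 fibroblast markers. The contractile sum is 11.1% and 10.2% in CD73+ cells and 46.8% in ESC, where the fibroblast sum is 7.26%, and the other actomyosin sum stays between 57.6% and 69.9%. Acta2 alone is 10221 of the contractile sum of 32341 in MEF.

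Markers of other cell types that such cultures could hold were counted in the same comparison of CD73+ with CD73- cells. Ptprc, Csf1r and Adgre1, which define blood cells and macrophages, were at 100 on all 11 arrays, and so was Emcn of endothelium. Cd68, a lysosomal protein abundant in macrophages and not limited to them, lay between 356 and 1062 and did not pass (-0.05, limma adjusted p = 0.831). Of 4 pericyte markers tested Notch3 fell (-1.03, limma adjusted p = 0.0276). Cspg4 ran the same way (-0.53) and Rgs5 (at least 0.98) and Anpep (0.39) the other way, none of them past the threshold. Rgs5 had 112 and 348 in CD73+ cells at day 9 and day 6, against 100 on both CD73- arrays. None of 6 striated muscle markers passed. Of 5 endothelial markers Tek, an angiopoietin receptor, rose (1.59, limma adjusted p = 0.0120), and of 2 macrophage and blood markers Laptm5 rose (0.82, adjusted p = 0.0337). Of 7 epithelial markers Krt8, a keratin of simple epithelia, rose (0.62, adjusted p = 0.0133), as did Ocln. Krt8 overlapped across the days, at 864 and 543 in CD73+ cells at day 9 and day 6 against 584 and 340 in CD73- cells. Beside these counts, 5.06% of all genes tested passed as higher and 2.94% as lower. The part of these genes in the contractile differences was likewise not tested.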

How the data were processed

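The authors deposited 1 table of linear intensities for 41345 probe sets on 11 arrays. Partek is named without a version, per the submitters' processing notes, and the summarisation, background correction and scaling were not stated in any source used here. The lowest intensity, a floor of 100, was shared by between 52.14% and 54.31% of probe sets on an array, and log2 was taken of the deposited intensity with no further scaling. Symbols were updated through a RefSeq table. Genes above the floor on some array (14301) and not constant on the 8 reprogramming arrays (13313) were tested. limma 3.58.1 in R 4.3.3 fitted population and day (3 residual degrees of freedom, prior 2.12), and calls were made at Benjamini-Hochberg adjusted p under 0.05. The p-values show how far the days agree and nothing of separate cultures. The number of arrays limits the precision. Values were handled in Python 3.11.15 with pandas 2.3.3, numpy 2.4.6 and matplotlib 3.10.9, and the fit was tested on simulated data. The simulated errors were independent between arrays, so that test shows nothing of cultures shared between the days.

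All members are named, with, of each other list, at most 4 genes past the threshold and the highest 2 by mean intensity, and by likeness the 8 genes nearest the mean of the members and the 4 nearest Acta2. Genes named as markers of another cell type, and Rcn3 and Tnc for their values, were added after their values were seen. The members and lists were chosen with earlier results of these data known. Alternatives were scaling (median centring, quantile), the filter (none, stricter), the mean of probe sets, a trend in the prior, no day term, sorted arrays only, 3-fold in place of 2-fold and leaving out each array in turn. Some listed genes are not reported here.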

Additional observations from a re-analysis of the deposited data

Results flagged for a closer look

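Each group has 1 array, so no group was large enough to look for an array far from its fellows. Genes were picked out where a difference ran in opposite directions with at least 0.2 log2 on both sides, and none of these reversals was tested. Contrasts among the sorted populations were compared between the days. For day 9 minus day 6, only CD49d+ and unsorted cells were compared with each other. Other pairs of populations were not scanned and also held such reversals, as for Acta2 at -0.74 in CD49d+ and 0.30 in CD73- cells. In CD49d+ minus CD73- cells at day 9 and day 6 the log2 differences were -0.2907 and 0.7936 for Cnn2, -0.3713 and 0.2492 for Tpm2, and -0.3166 and 0.4238 for Actg2.

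For 7 contractile genes the value was lower at day 9 in CD49d+ cells and higher at day 9 in unsorted cells. The log2 differences day 9 minus day 6, in CD49d+ and then unsorted cells, were -0.7368 and 0.678 for Acta2, -0.9312 and 1.089 for Tagln, -0.7585 and 0.4259 for Cnn1, and -0.8728 and 0.5143 for Cnn2. They were -0.394 and 0.4709 for Myl9, -0.4571 and 0.5274 for Tpm2, and -0.2519 and 0.2985 for Cald1.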

How the results depend on the processing

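Day was a term of the fit, which sets the populations against each other within a day. No paired analysis was possible by replicate number, because each group has 1 array and the labels carry no such numbers. The cause of each change below was not tested. Of the 10 genes, CD73+ minus CD73- gave 2 calls and 1 with no filter on low values, where Tpm1 had a limma adjusted p of 0.0526. CD49d+ minus CD73+ gave 0 calls, 3 with median centring, 3 with quantile scaling, 1 with the stricter filter, 2 with a trend in the prior and 1 with no day term. CD73- minus unsorted gave 0 and, with centring, 2. ESC had 6 genes at least 2-fold below MEF and 3 at 3-fold. Leaving out each array in turn gave 0 to 3 calls in CD73+ minus CD73- and 0 to 9 in CD73+ minus unsorted (main 7).

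In day 9 minus day 6, Tagln and Myl9 turned to 0.013 each with centring, and on the 6 sorted arrays Acta2, Tpm1 and Tpm2 turned to -0.16, -0.051 and -0.098. Directions that turned when 1 array was left out had these log2 ranges. In CD73+ minus CD73-, Cnn1 -0.24 to 0.047. In CD49d+ minus CD73-, Actg2 -0.27 to 0.38, Cald1 -0.31 to 0.23, Cnn2 -0.30 to 0.80, Tpm1 -0.17 to 0.13 and Tpm2 -0.40 to 0.28. In day 9 minus day 6, Acta2 -0.16 to 0.31, Cnn1 -0.32 to 0.076, Cnn2 -0.23 to 0.23, Myl9 -0.17 to 0.12, Tagln -0.37 to 0.30, Tpm1 -0.051 to 0.11 and Tpm2 -0.10 to 0.23. In CD49d+ minus unsorted, Cald1 -0.36 to 0.19, Cnn2 -1.03 to 0.079, Mylk -0.22 to 0.026 and Tagln -1.35 to 0.11. In CD73+ minus unsorted, Mylk -0.066 to 0.42. In CD73- minus unsorted, Cald1 -0.14 to 0.050 and Mylk -0.22 to 0.026.

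Over all genes, CD73+ minus CD73- gave 1065 calls, 497 to 1704 under other settings and 0 to 1009 with 1 array left out. CD49d+ minus CD73- gave 1777, then 1007 to 2330 and 1 to 1204. CD49d+ minus CD73+ gave 4, then 0 to 813 and 0. CD73+ minus unsorted gave 2952, then 1940 to 4011 and 0 to 2741. CD49d+ minus unsorted gave 585, then 324 to 919 and 0 to 183. CD73- minus unsorted gave 136, then 52 to 656 and 0 to 21. The day comparison gave 0, then 0 to 137 and 0. The share of calls that were higher was 63.2% in CD73+ minus CD73-, 52.2% with centring and 50.9% with quantile scaling. It was 25% of 4 calls in CD49d+ minus CD73+, 52.1% with centring and 69.1% with quantile scaling, 51.5% in CD73+ minus unsorted and 35.4% with quantile scaling, and 20.6% in CD73- minus unsorted, 49.5% with centring and 31.4% with quantile scaling.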

Other observations

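Of 6 receptors, channels and kinases of mature smooth muscle tested, 2 rose and 2 fell in CD73+ minus CD73- cells, and the same 4 passed in the same directions in CD49d+ minus CD73- cells, comparisons that share the CD73- arrays. Of all genes 8.00% passed in CD73+ minus CD73- cells and 13.3% in CD49d+ minus CD73- cells. In both comparisons fewer of the 4 passed when certain arrays were left out, 1 at a time. Pde5a, the cGMP phosphodiesterase, rose in CD73+ cells (log2 difference 1.36, limma adjusted p = 0.0100) and in CD49d+ cells (1.65, adjusted p = 0.00415). Its intensity was 1012 and 830 in CD49d+ cells at day 9 and day 6, 934 and 605 in CD73+ cells and 334 and 257 in CD73- cells, against 452 in MEF. Agtr1a, the angiotensin II receptor, rose in CD73+ cells (1.25, adjusted p = 0.0168) and in CD49d+ cells (adjusted p = 0.00985). Its intensity was 1511 in SC4, where Acta2 was at 100.

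Itga8, an integrin of smooth muscle and mesenchyme, fell in CD73+ cells (-1.79, limma adjusted p = 0.0172) and in CD49d+ cells (-1.52, adjusted p = 0.0181). Nexn, an actin-binding protein of muscle, was at 100 on both CD73+ arrays and at least 2.10-fold lower there (adjusted p = 0.0312), and it fell in CD49d+ cells (-0.998, adjusted p = 0.0264).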
